A study of Mus musculus with 11 samples.

Results

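The mouse genome holds 39 Hox genes, and all of them were found among the 47643 gene symbols measured, by a symbol made of Hox, a cluster letter from a to d and a number. This rule reads the symbol alone and no measured value. The samples were fibroblasts from normal skin (NS) and from 5-day wounds (5dw) of wild-type (WT) mice and of mice with the K14-Act transgene (Act), in which the keratin 14 promoter drives the activin A subunit gene INHBA in keratinocytes, so that the fibroblasts themselves were not the intended source of the transgene. All animals were female F1 offspring of CD-1 and C57BL/6 parents, 9 to 12 weeks old, and the wounds were full-thickness excisions on either side of the back midline. Live fibroblasts were sorted by the surface marker CD140a, with cells carrying CD45 gated out, and every library held RNA of 3 animals. The groups were WT NS (n = 3 libraries), Act NS (n = 3), WT 5dw (n = 3) and Act 5dw (n = 2, numbered 1 and 3, since the authors left out library 2 at quality control). The place along the back from which normal skin was taken is stated neither in the labels nor in the methods, so a difference in body position between NS and 5dw cannot be told apart from a difference due to wounding. The RNA input was 100 ng for every NS library and 200 ng for every 5dw library. A difference due to RNA input thus cannot be told apart from wounding either.

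Hox genes encode homeodomain transcription factors and lie in 4 clusters, HoxA to HoxD, where genes in the same place of different clusters form a paralog group with a shared number. In the embryo, genes with low numbers are active towards the head and genes with high numbers towards the tail and in distal limbs. Adult fibroblasts keep part of this pattern, so that the set of active Hox genes differs between skin sites. Hox proteins bind DNA together with the TALE homeodomain cofactors of the Pbx, Meis and Pknox families, and Polycomb and Trithorax proteins hold the clusters in their silent and active states.

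Mapped totals recovered from the values were 18649321 to 39702138 reads per library, with the WT 5dw libraries the deepest. Among the 11979 genes tested, the median log2FC was -0.40 for 5dw against NS in WT and -0.31 in Act without any further scaling, and 0.01 in both with median-ratio scaling, so changes are given on both scales. The sorting marker Pdgfra was at 29.6 to 65.3 RPKM and the leucocyte marker Ptprc, which encodes CD45, at 0.0498 RPKM or less in the 11 libraries. The summed level of 14 keratinocyte markers was 1294 to 4816 RPKM in NS and 129.6 to 1103 RPKM in 5dw, and that of 9 immune cell markers 17.9 to 49.1 RPKM in NS and 68.2 to 120.4 RPKM in 5dw, with no marker of either list at 0 in all libraries. The sums of 9 Schwann cell and melanocyte markers (9.14 to 17.9 RPKM in NS and 2.54 to 4.05 RPKM in 5dw) and of 9 skeletal muscle markers (4.28 to 6.95 and 2.89 to 3.21 RPKM) were also lower in every 5dw library. Of 8 dermal papilla markers 7 were tested, and 5 were lower on both scales in WT and 3 in Act, beside 21.2% and 20.4% of all tested genes, with median log2FC of -2.40 and -1.70. Crabp1 was higher on both scales in WT, and the sum of the list overlapped, at 36.9 to 82.3 RPKM in NS and 52.5 to 121.2 RPKM in 5dw. The sums of endothelial, pericyte and adipocyte markers overlapped between NS and 5dw. In bulk samples, fewer cells of a type and less RNA per cell cannot be told apart, and the part of these other cells in the Hox values was not tested.

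Hox transcripts were rare in these fibroblasts. The highest value of any Hox gene in any library was 8.40 RPKM (reads per kilobase of gene, scaled to the mapped total), and all 39 genes together summed to 26.1 to 33.9 RPKM in the 6 NS libraries and 21.1 to 26.1 RPKM in the 5 libraries of 5dw. Of the 39 genes, 10 had a mean of at least 1 RPKM, 12 reached the filter for testing of at least 1 RPKM in at least 2 libraries, 25 were seen but stayed under it, and 2, Hoxb13 and Hoxd12, were at 0 throughout. The recovered reads per library over all Hox genes were 1037 to 2537. A further 9 genes never reached 0.1 RPKM: Hoxa3, Hoxa4, Hoxa13, Hoxb1, Hoxb5, Hoxc12, Hoxd10, Hoxd11 and Hoxd13.

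Most Hox RPKM came from paralog groups 4 to 10, which made up 88.4% to 92.03% of the summed Hox RPKM in NS and 84.5% to 90.7% in 5dw. Groups 11 to 13, which in the embryo pattern the tail end and the distal limb, made up 0.945% to 3.51% in NS and 1.76% to 2.71% in 5dw. Groups 1 to 3, which are active in the hindbrain and neck, made up 5.13% to 9.51% in NS and 7.01% to 12.8% in 5dw. These ranges overlapped between the tissues. Group 10, of the posterior trunk and hindlimb level, was the largest single group, with a mean of 20.7% in NS and 33.9% in 5dw. Its sum was 5.25 to 7.33 RPKM in NS and 5.99 to 9.83 RPKM in 5dw. The share of groups 4 to 9 was 66.03% to 71.3% in NS and 46.8% to 61.1% in 5dw, without overlap, and these shares, which are tied to that of group 10, are a description.

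The HoxC cluster on chromosome 15 was the most abundant, with 45.9% to 58.5% of the summed Hox RPKM in NS and 54.0% to 59.4% in 5dw. The HoxA cluster on chromosome 6 followed with 23.3% to 28.9% in NS and 19.9% to 22.9% in 5dw, without overlap between NS and 5dw. The HoxD cluster on chromosome 2 made up 10.2% to 18.5% in NS and 6.86% to 8.68% in 5dw, again without overlap. The HoxB cluster on chromosome 11 made up 8.05% to 10.6% in NS and 10.98% to 17.6% in 5dw, higher in wounds by a narrow gap. These shares are tied to each other, since they add up to the whole, and are a description. On the RPKM scale the HoxD sum was 4.55 ± 1.09 (SD, n = 3) in WT NS, 4.51 ± 1.61 (SD, n = 3) in Act NS, 1.98 ± 0.279 (SD, n = 3) in WT 5dw and 1.67 ± 0.00983 (SD, n = 2) in Act 5dw.

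**Figure D1:**
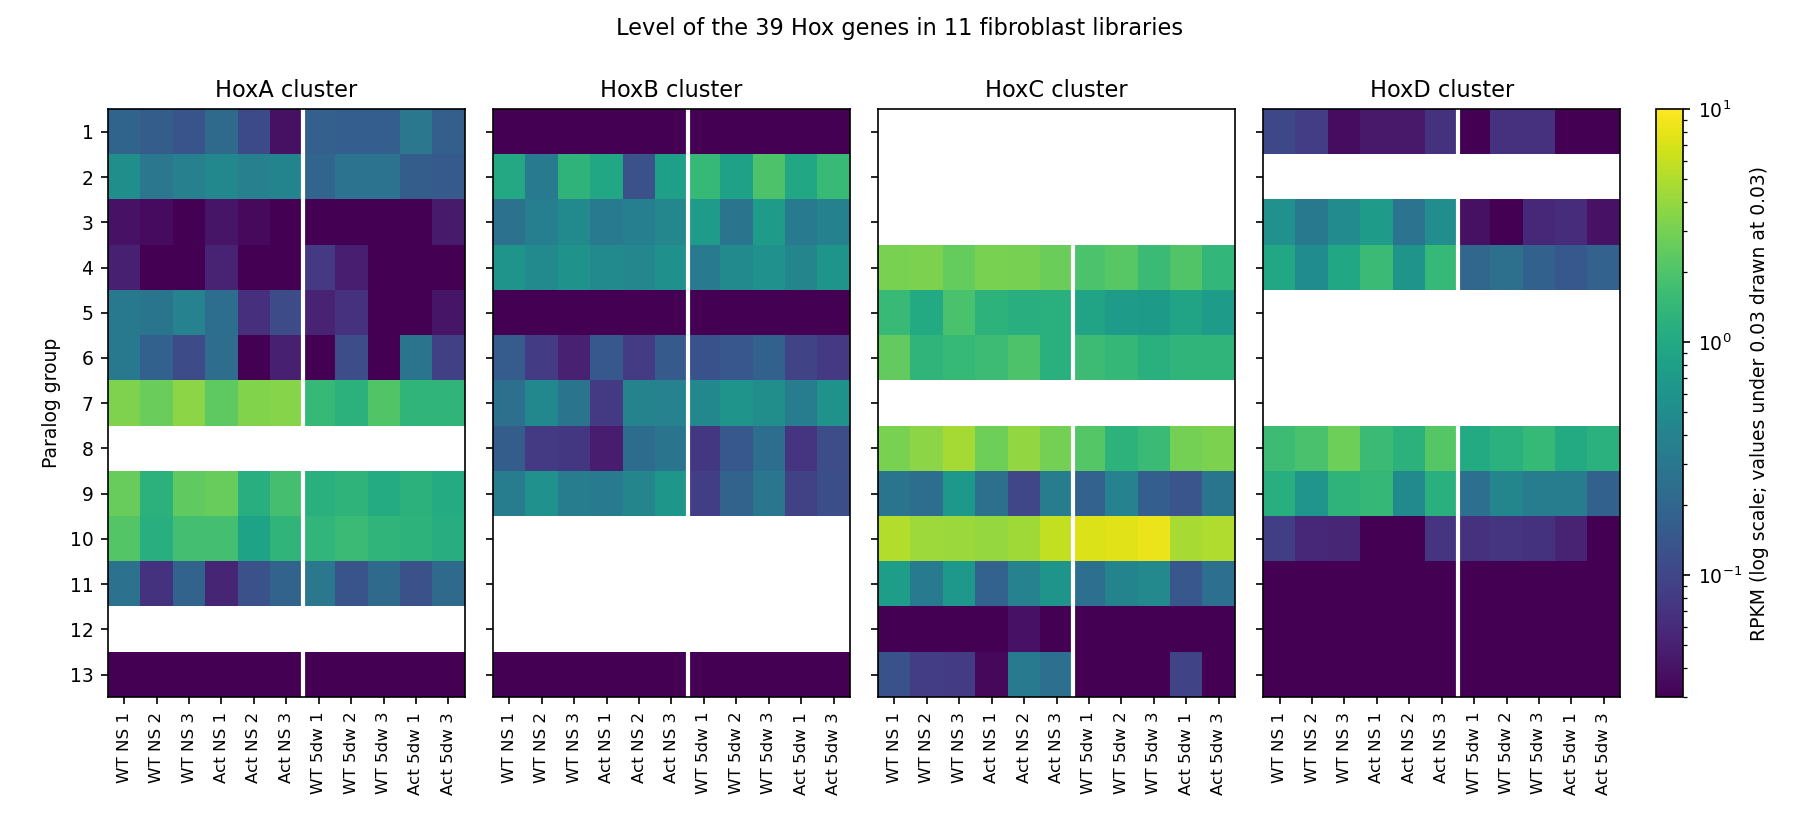
RPKM of the 39 Hox genes (log colour scale, values under 0.03 drawn at 0.03) by paralog group (rows) in the 11 libraries (columns), 1 panel per cluster, with white cells where the cluster has no such gene and a white line between NS and 5dw. Hoxc10 is the brightest row, at 4.03 to 8.40 RPKM, and the rows of Hoxd3, Hoxd4 and Hoxd9 are darker in every 5dw library than in every NS library.

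**Figure D2:**
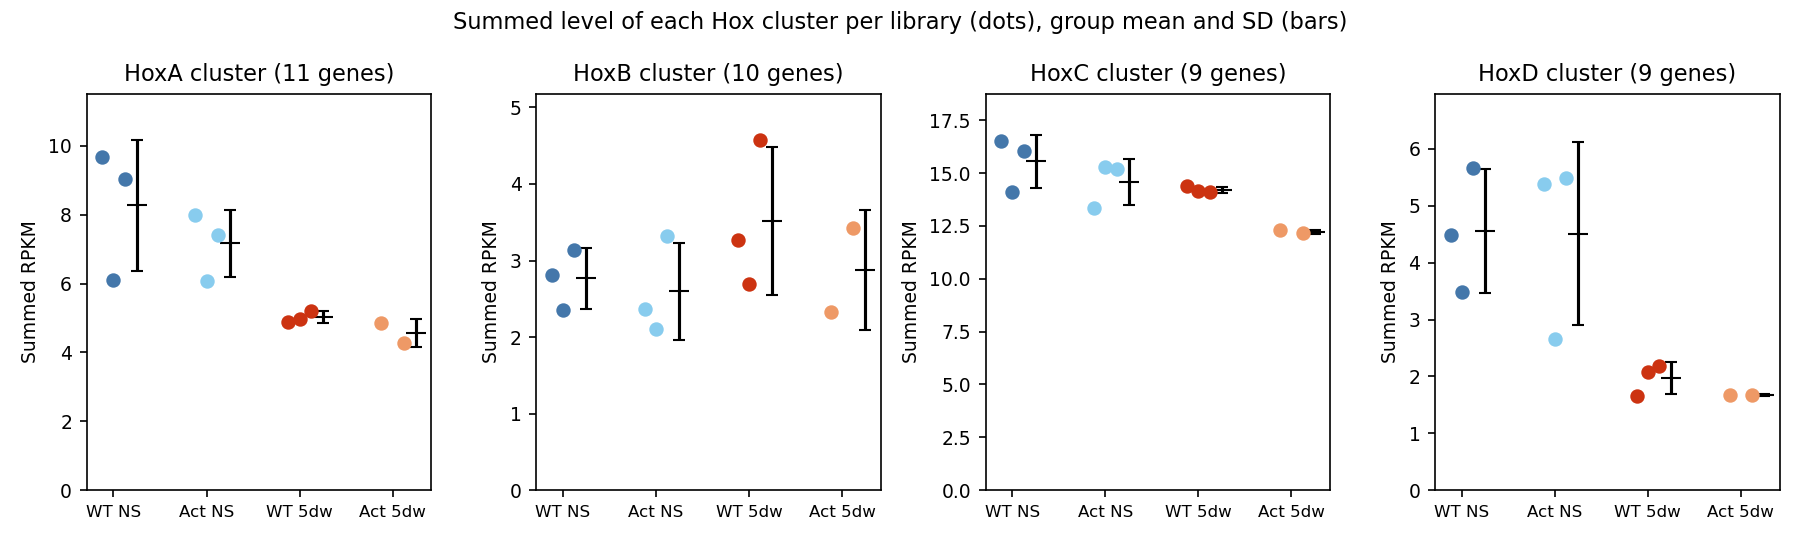
Summed RPKM of each Hox cluster in every library (dots) with the group mean and SD (bars), by group. The 5 libraries of 5dw lie at 1.66 to 2.19 RPKM for HoxD and the 6 NS libraries at 2.65 to 5.67 RPKM, while NS and 5dw overlap for HoxB and HoxC, where the 2 Act 5dw libraries lie below the others for HoxC.

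The pattern across the 39 genes was largely kept between libraries. Spearman's rho over the 39 genes was 0.890 to 0.980 between NS libraries, 0.916 to 0.962 between 5dw libraries and 0.854 to 0.928 between NS and 5dw libraries. The values within a library share its depth and the genes at 0, and genes are not independent replicates, so these coefficients are a description.

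The question of the first comparison was how the Hox genes differ between normal skin and wounds of WT mice. Without scaling, 7 of the 12 tested Hox genes were lower in WT 5dw and 1 was higher in limma-trend (adjusted p under 0.05), beside 48.8% of all tested genes lower and 9.45% higher. Of these 7, Hoxc5, Hoxd4 and Hoxd9 had passed the filter through NS libraries alone, the group where they are high, and 0 Hox genes had passed it through 5dw libraries alone. The median log2FC was -0.56 over the 12 Hox genes and -0.40 over all tested genes. With median-ratio scaling, 21.2% of all tested genes were lower and 23.4% higher. With the call required both without and with median-ratio scaling, Hoxa7 and Hoxc8 fell and Hoxc10 rose, so 2 of 12 were lower beside 21.2% of all tested genes and 1 of 12 was higher beside 9.45%. The calls without scaling that did not hold on both scales were Hoxc4, Hoxc5, Hoxd4, Hoxd8 and Hoxd9. With the replicate number as a block, 8 Hox genes were lower and 2 higher without scaling, beside 50.9% and 10.2% of all tested genes, since Hoxa9 (log2FC -0.57, SE 0.20, adjusted p = 0.0294) and Hoxb2 (log2FC 0.51, SE 0.17, adjusted p = 0.0228) were then called as well.

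In Act mice, 4 of the 12 genes were lower in 5dw than in NS without scaling, beside 36.5% of all tested genes, with a median log2FC of -0.38 over the 12 Hox genes and -0.31 over all tested genes. On both scales Hoxa7 and Hoxd4 fell, which is 2 of 12 beside 20.4% of all tested genes. Hoxd4, like Hoxd9 among the 4, had passed the filter through NS libraries alone, and for Hoxd4 these were libraries of Act NS. No Hox gene was called higher in Act 5dw, neither without scaling nor on both scales, beside 9.04% of all tested genes. None was higher at an unadjusted p under 0.05 without scaling. With median-ratio scaling Hoxc10 (log2FC 0.36, unadjusted p = 0.0288) and Hoxb2 (log2FC 0.93, unadjusted p = 0.0493) were, with adjusted p-values of 0.0656 and 0.0999 in limma-trend, and limma-voom on the recovered reads called 0 on either scale. The number of lower genes without scaling fell to 2 without Act 5dw library 3, beside 23.7% of all tested genes, as the calls of Hoxc4 (log2FC -0.43, adjusted p = 0.125) and Hoxd9 (log2FC -0.81, adjusted p = 0.141) were lost, and Act 5dw was then represented by a lone library whose spread was taken from the other groups.

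**Figure D3:**
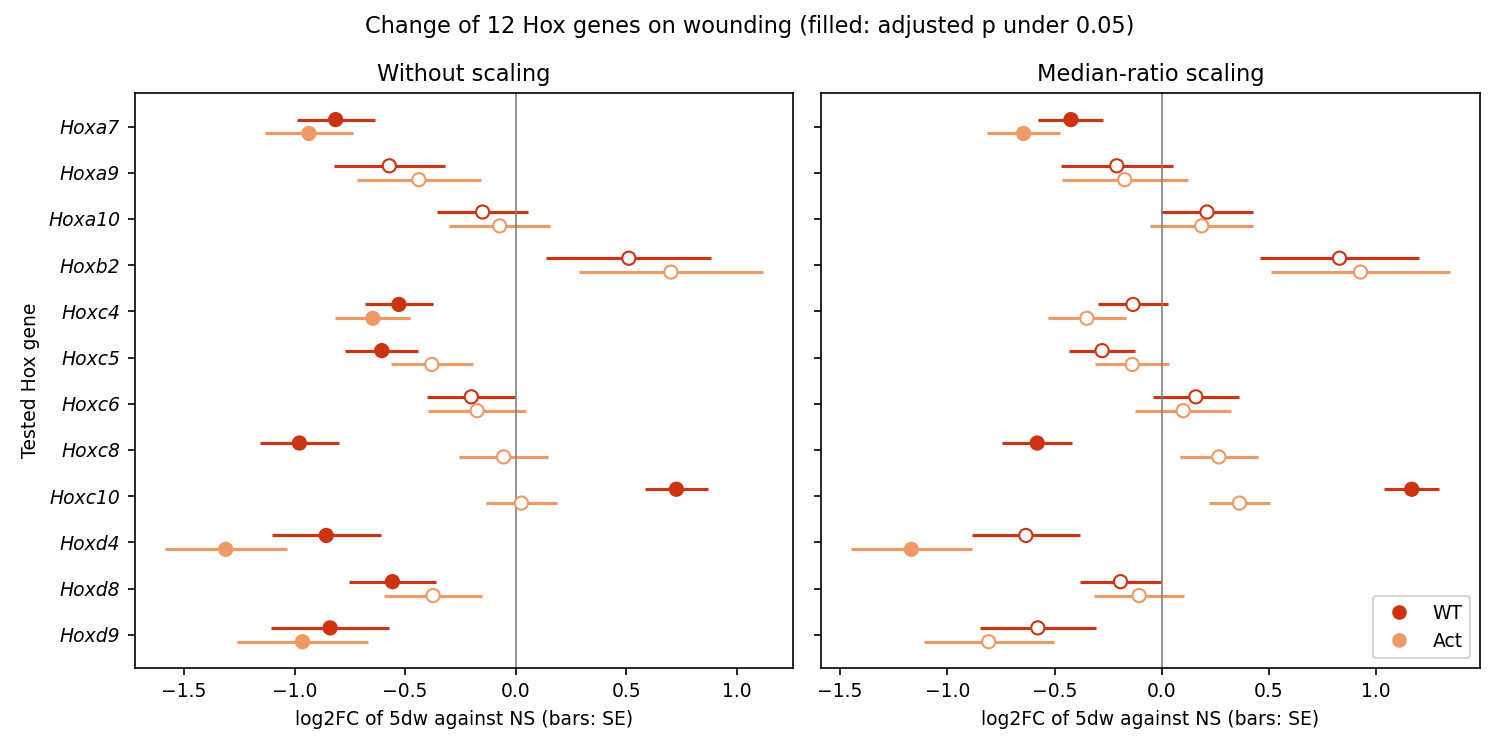
log2FC of 5dw against NS (x axis) with its SE (bars) for the 12 tested Hox genes in WT and Act, without scaling (left) and with median-ratio scaling (right), where filled points have an adjusted p under 0.05. Hoxa7 is filled on both sides in both genotypes, Hoxc8 at -0.98 and Hoxc10 at 0.73 are filled in WT, and most other points move towards or past 0 on the right.

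Hoxc10 (ENSMUSG00000022484.7, GRCm38 chr15:102966796-102971893, plus strand), a gene of the posterior trunk and hindlimb level, was the most abundant Hox gene. It was at 5.11, 4.27 and 4.20 RPKM in WT NS and 4.03, 4.37 and 5.91 RPKM in Act NS, against 7.35, 7.65 and 8.40 RPKM in the WT wounds and 4.64 and 4.97 RPKM in the Act wounds. On the RPKM scale all 3 WT 5dw libraries lay above every other library, and the Act 5dw libraries lay within the range of NS. With median-ratio scaling every 5dw library, those of Act included, lay above every NS library. In WT it rose by a log2FC of 0.73 (SE 0.14, adjusted p = 0.00149) without scaling and 1.17 (SE 0.13, adjusted p = 6.73e-05) with it. In Act the log2FC was 0.03 (95% interval -0.32 to 0.38, adjusted p = 0.911) without scaling and 0.36 (SE 0.14, adjusted p = 0.0656) with it. The exons of Hoxc10 share 8.7% of their bases with annotated exons of Hoxc5 on the same strand.

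Hoxc8 (ENSMUSG00000001657.7, chr15:102990607-102994111, plus strand), a gene of the thoracic level, was second in mean level. It was at 3.10, 3.62 and 4.54 RPKM in WT NS and 2.80, 3.89 and 2.96 RPKM in Act NS, against 2.16, 1.29 and 1.56 RPKM in the WT wounds and 2.95 and 3.15 RPKM in the Act wounds. The WT 5dw libraries were the lowest of the 11, and Act 5dw overlapped both NS groups. In WT it fell by 0.98 on the log2 scale (SE 0.18, adjusted p = 0.00105) without scaling and by 0.58 (SE 0.16, adjusted p = 0.0151) with it. In Act the log2FC was -0.05 (95% interval -0.50 to 0.39, adjusted p = 0.847) and turned to 0.27 (SE 0.18, adjusted p = 0.269) with scaling. Annotated exons of other genes did not overlap those of Hoxc8.

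Hoxa7 (ENSMUSG00000038236.8, chr6:52214491-52221854, minus strand), another gene of the trunk, was the Hox gene that limma-trend called lower on both scales in both genotypes, while limma-voom on the recovered reads called Hoxd3 and Hoxd4 so as well. It was at 3.25, 2.65 and 3.604 RPKM in WT NS and 2.35, 3.33 and 3.48 RPKM in Act NS, against 1.47, 1.27 and 2.06 RPKM in the WT wounds and 1.34 and 1.34 RPKM in the Act wounds. Every NS library lay above every 5dw library. The log2FC was -0.81 (SE 0.18, adjusted p = 0.00271) in WT and -0.93 (SE 0.20, adjusted p = 0.00326) in Act without scaling, and -0.42 (SE 0.15, adjusted p = 0.0432) and -0.64 (SE 0.17, adjusted p = 0.0124) with it. Quantile normalization left -0.33 in WT, with an adjusted p of 0.0884. Exons of the antisense gene Hoxaas3 cover 20.4% of the Hoxa7 exon bases, and neither labels nor methods state whether counting used strand, so reads of the 2 genes cannot be told apart if strand was not used.

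**Figure D4:**
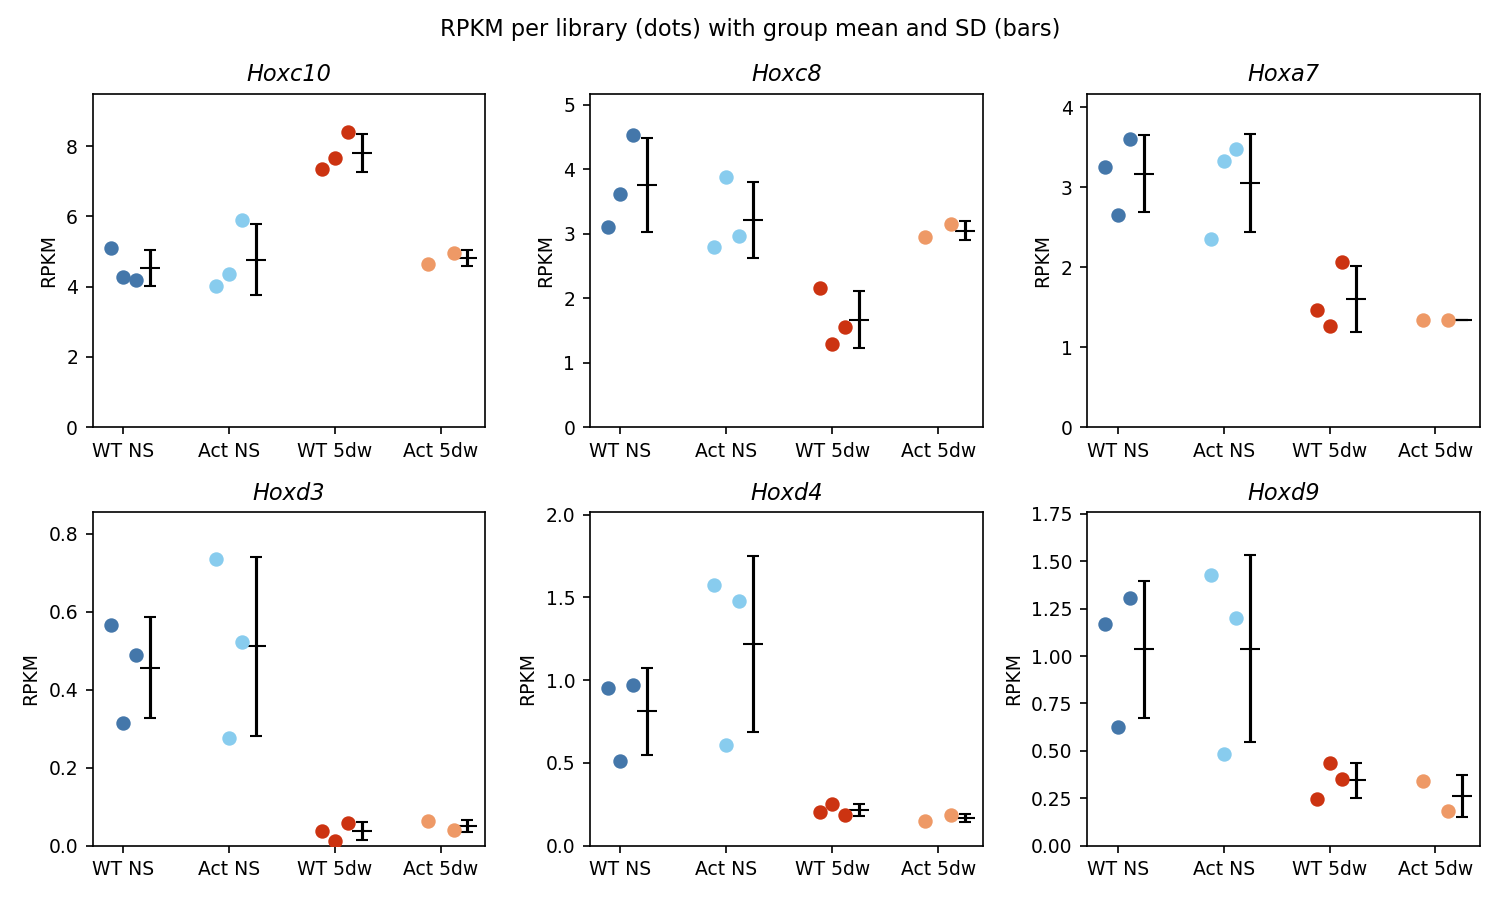
RPKM of Hoxc10, Hoxc8, Hoxa7, Hoxd3, Hoxd4 and Hoxd9 in every library (dots) with the group mean and SD (bars), by group and with a separate y axis from 0 for each gene. Hoxc10 and Hoxc8 differ between WT 5dw and Act 5dw without overlap, while Hoxa7, Hoxd3, Hoxd4 and Hoxd9 are lower in both 5dw groups than in every NS library.

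Hoxd3, Hoxd4 and Hoxd9, from the anterior and middle part of the HoxD cluster, had low values in every wound library. Hoxd4 (ENSMUSG00000101174.8, chr2:74711929-74729160, plus strand), a gene of the neck level, was at 0.955, 0.509 and 0.970 RPKM in WT NS and 1.57, 0.605 and 1.48 RPKM in Act NS, against 0.205, 0.254 and 0.184 RPKM in the WT wounds and 0.149 and 0.185 RPKM in the Act wounds. No NS library overlapped a 5dw library. It fell in Act by 1.31 on the log2 scale (SE 0.28, adjusted p = 0.00324) without scaling and by 1.17 (SE 0.28, adjusted p = 0.00791) with it, but quantile normalization left -0.72 with an adjusted p of 0.129. In WT the log2FC was -0.86 (SE 0.25, adjusted p = 0.0124) without scaling and -0.63 (SE 0.25, adjusted p = 0.0626) with it. Hoxd4 passed the filter through Act NS libraries 1 and 3 alone, and through no WT or 5dw library. It could thus be tested because it was high in Act NS, a group of the comparison in which it fell.

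Hoxd3 (ENSMUSG00000079277.9, chr2:74711927-74748442, plus strand), the neighbour of Hoxd4 on the anterior side, stayed under the filter. It was at 0.566, 0.315 and 0.489 RPKM in WT NS and 0.736, 0.275 and 0.522 RPKM in Act NS, against 0.0386, 0.0132 and 0.0592 RPKM in the WT wounds and 0.0621 and 0.0398 RPKM in the Act wounds. The mean over NS was 11.4 times the mean over 5dw. The recovered reads were 56, 23 and 57 in WT NS and 69, 26 and 47 in Act NS, against 6, 2 and 9 in the WT wounds and 5 and 4 in the Act wounds. Every NS library exceeded every 5dw library, although the WT 5dw libraries were the deepest.

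For genes under the RPKM filter, limma-voom was run on the recovered reads with a filter on the mean of at least 0.2 RPM (reads per mapped total on the same scale as RPKM, without length), which 26 Hox genes passed. This test was added after seeing the data. On both scales it called Hoxa5, Hoxa7, Hoxc8, Hoxc13, Hoxd3 and Hoxd4 lower in WT 5dw, which is 6 of 26 beside 22.0% of all genes so tested, and Hoxc10 higher beside 9.33%. Hoxa5, Hoxc13 and Hoxd3 had a mean under this filter in 5dw and passed through NS, where they are high, while 0 of the 26 had a mean under it in NS. In Act it called Hoxa7, Hoxd3 and Hoxd4 lower, which is 3 of 26 beside 16.7%, and no Hox gene higher beside 8.11%. The log2FC of Hoxd3 with median-ratio scaling was -3.23 (SE 0.65, adjusted p = 0.00218) in WT and -2.72 (SE 0.78, adjusted p = 0.0199) in Act. For Hoxd4 it was -1.43 (SE 0.49, adjusted p = 0.0338) in WT and -2.29 (SE 0.66, adjusted p = 0.0219) in Act.

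Hoxd3 and Hoxd4 are not independent measurements. In GENCODE M21 their first exons share 388 bases, and 62.3% of the Hoxd3 exon bases and 52.3% of the Hoxd4 exon bases lie in same-strand exons of each other or of the readthrough gene Gm28230. Neither labels nor methods state how reads were split between them, so their separate values are uncertain. Their summed RPM was 5.03, 2.73 and 4.78 in WT NS, 7.52, 2.86 and 6.40 in Act NS, but 0.756, 0.800 and 0.773 in the WT wounds and 0.682 and 0.702 in the Act wounds. The sum does not depend on how reads were divided between these 2 genes, but it does depend on how those shared with Gm28230 were counted. The NS and 5dw libraries did not overlap in this sum.

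Hoxd9 (ENSMUSG00000043342.9, chr2:74697727-74700208, plus strand), a gene of the lumbar level, was at 1.17, 0.628 and 1.31 RPKM in WT NS and 1.43, 0.486 and 1.20 RPKM in Act NS, against 0.248, 0.435 and 0.350 RPKM in the WT wounds and 0.342 and 0.183 RPKM in the Act wounds. On the RPKM scale all 5dw libraries lay below every NS library, by a narrow gap, but with median-ratio scaling they did not. The log2FC was -0.84 (SE 0.27, adjusted p = 0.0193) in WT and -0.96 (SE 0.30, adjusted p = 0.0217) in Act without scaling, and -0.58 (adjusted p = 0.107) and -0.81 (adjusted p = 0.0555) with it. It passed the filter through NS libraries alone, as did Hoxc5 and Hoxd4, so these 3 genes could be tested because they were high in NS.

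Hoxd8 (ENSMUSG00000027102.4, chr2:74704615-74707933, plus strand), the most abundant HoxD gene, was at 1.60, 1.90 and 2.80 RPKM in WT NS and 1.58, 1.24 and 2.14 RPKM in Act NS, against 1.05, 1.22 and 1.46 RPKM in the WT wounds and 1.05 and 1.24 RPKM in the Act wounds. Within each genotype every NS library lay above every 5dw library, in Act by a narrow gap, while across genotypes WT 5dw overlapped Act NS. In WT the log2FC was -0.56 (SE 0.20, adjusted p = 0.0320) without scaling and -0.19 (adjusted p = 0.430) with it. In Act it was -0.37 (adjusted p = 0.191) and -0.11 (adjusted p = 0.720). The log2FC of Hoxd8 thus lay nearer to 0 than those of its neighbours Hoxd4 and Hoxd9 in each of these fits, a difference between genes that was not tested. Hoxd1 and Hoxd10 to Hoxd13 were at 0.106 RPKM or less in every library.

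The sequences before the starts of Hoxd3, Hoxd4 and Hoxd9 are shown because these 3 genes of the cluster had every NS library above every 5dw library without scaling. With median-ratio scaling this held for Hoxd3 and Hoxd4 alone. They are RefSeq promoter sequences of GRCm38.p6, plus strand, 5′ to 3′, of up to 250 bases before the RefSeq start, shortened where a GENCODE exon of the same strand begins earlier. The RefSeq start of Hoxd4 lies inside the GENCODE span given above, downstream of its first GENCODE exon, while those of Hoxd3 and Hoxd9 lie near the GENCODE starts. Capitals mark TGACCT, the reverse complement of AGGTCA, the core of nuclear receptor elements such as those of retinoic acid receptors, and TTTATA, the reverse complement of TATAAA. The Hoxd3 sequence (chr2:74711743-74711926) has 11 CG pairs, the Hoxd4 sequence (chr2:74721728-74721977) 3 and the Hoxd9 sequence (chr2:74697513-74697726) 10.
Hoxd3: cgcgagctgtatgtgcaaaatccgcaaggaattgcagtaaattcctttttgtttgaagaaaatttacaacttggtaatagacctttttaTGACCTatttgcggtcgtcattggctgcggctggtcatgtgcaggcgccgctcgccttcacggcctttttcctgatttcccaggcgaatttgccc
Hoxd4: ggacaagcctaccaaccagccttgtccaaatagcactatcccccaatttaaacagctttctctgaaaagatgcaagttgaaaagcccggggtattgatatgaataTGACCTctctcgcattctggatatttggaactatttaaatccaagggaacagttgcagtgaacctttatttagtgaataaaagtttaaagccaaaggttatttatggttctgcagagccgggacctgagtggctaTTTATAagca
Hoxd9: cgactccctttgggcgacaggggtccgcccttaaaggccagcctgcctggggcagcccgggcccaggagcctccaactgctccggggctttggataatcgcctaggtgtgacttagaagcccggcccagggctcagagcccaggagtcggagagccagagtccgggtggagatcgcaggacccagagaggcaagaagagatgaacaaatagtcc

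Within 250 bases before the start and on either strand, AGGTCA was present for Hoxd3 and Hoxd4 and in 14.02% of all 32851 RefSeq promoters. It was also present for Hoxd8 and Hoxd10 of the same cluster, for Hoxb4 and for Hoxc4. TATAAA was present for Hoxd4 and in 12.4% of all promoters, and among the other Hox genes for Hoxa10, Hoxb8 and Hoxd13. The Pbx and Hox pair motif TGATNNAT (7.68% of all promoters) and the AP-1 motif TGANTCA (6.75%) were in none of the 3 windows. The 4 motifs overlap with each other in no position of the printed sequences. A match in such a window is a description and not a bound site. Promoter sequences were at hand for 22 of the 39 Hox genes.

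Among the other HoxC genes, Hoxc4 (chr15:103018934-103036852), of the neck level, was at 3.12, 3.19 and 2.56 RPKM in WT NS and 3.14, 3.02 and 2.71 RPKM in Act NS, against 1.92, 2.22 and 1.57 RPKM in the WT wounds and 2.07 and 1.40 RPKM in the Act wounds. Every NS library lay above every 5dw library. Its log2FC was -0.53 (SE 0.15, adjusted p = 0.0122) in WT and -0.65 (SE 0.17, adjusted p = 0.0102) in Act without scaling, and -0.13 (adjusted p = 0.533) and -0.35 (adjusted p = 0.153) with it. Hoxc5 was at 1.53, 1.04 and 1.88 RPKM in WT NS and 1.29, 1.16 and 1.21 RPKM in Act NS, against 0.897, 0.744 and 0.718 RPKM in the WT wounds and 0.899 and 0.745 RPKM in the Act wounds. It had a log2FC of -0.61 (SE 0.16, adjusted p = 0.00931) in WT without scaling and -0.28 (adjusted p = 0.166) with it, and its exons in part overlap those of Hoxc10. Hoxc6 had a mean of 1.68 RPKM in NS and 1.39 RPKM in 5dw and was not called in either genotype. Hoxc9 and Hoxc11 stayed under 0.8 RPKM.

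Hoxc13, which is known for its role in the hair shaft, was the exception among the nearly silent group 13 genes. Its recovered reads were 8, 4 and 6 in WT NS, 2, 19 and 14 in Act NS, but 0, 0 and 2 in the WT wounds and 5 and 1 in the Act wounds. In limma-voom with median-ratio scaling its log2FC was -3.08 (SE 1.03, adjusted p = 0.0315) in WT and -1.32 (SE 1.01, adjusted p = 0.341) in Act. The summed level of 10 hair matrix keratinocyte markers, none of which was at 0 throughout, was 0.662, 3.16 and 1.55 RPKM in WT NS, 0.581, 11.9 and 2.71 in Act NS, but 0.262, 0.326 and 0.522 in the WT wounds and 3.10 and 1.78 in the Act wounds. The library with the most Hoxc13 reads, Act NS 2, thus also had the highest sum of hair markers, and the part of such cells in the Hoxc13 value was not tested.

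In the HoxA cluster, Hoxa9 (chr6:52223100-52231089) was the second most abundant gene. It was at 2.57, 1.25 and 2.43 RPKM in WT NS and 2.59, 1.14 and 1.79 RPKM in Act NS, against 1.19, 1.31 and 1.07 RPKM in the WT wounds and 1.26 and 1.08 RPKM in the Act wounds. The spread within NS was wide and reached down to the 5dw values, with a log2FC of -0.57 (SE 0.25, adjusted p = 0.0696) in WT and -0.44 (SE 0.28, adjusted p = 0.222) in Act. With the replicate block in limma-trend and no scaling it was -0.57 (SE 0.20, adjusted p = 0.0294) in WT, a call, and -0.58 (SE 0.23, adjusted p = 0.0583) in Act. Hoxa10 had a mean of 1.503 RPKM in NS and 1.34 RPKM in 5dw and was not called. Hoxa5 had 15, 10 and 22 recovered reads in WT NS, 11, 3 and 5 in Act NS, but 4, 5 and 2 in the WT wounds and 1 and 2 in the Act wounds. Its log2FC in limma-voom with scaling was -2.19 (SE 0.53, adjusted p = 0.00621) in WT and -1.18 (SE 0.76, adjusted p = 0.254) in Act.

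No HoxB gene was called on both scales in either genotype. Hoxb2 (ENSMUSG00000075588.6, chr11:96350525-96354012), of the hindbrain level and the most abundant HoxB gene, was at 0.998, 0.329 and 1.30 RPKM in WT NS and 0.950, 0.127 and 0.802 RPKM in Act NS, against 1.45, 0.840 and 1.98 RPKM in the WT wounds and 0.957 and 1.53 RPKM in the Act wounds. The groups overlapped in WT and, by a narrow gap, not in Act, and the lowest value in both NS groups was that of library 2. Each 5dw library nevertheless lay above the NS library of the same genotype and number, by a narrow gap for Act library 1. The log2FC was 0.51 (SE 0.37, adjusted p = 0.257) in WT and 0.70 (SE 0.42, adjusted p = 0.191) in Act without scaling, and 0.83 (adjusted p = 0.0941) and 0.93 (adjusted p = 0.0999) with it. With the replicate block and no scaling it was 0.51 (SE 0.17, adjusted p = 0.0228) in WT, a call, and 0.39 (SE 0.19, adjusted p = 0.123) in Act. Exons of the antisense gene Hoxb3os cover 27.3% of the Hoxb2 and 52.9% of the Hoxb3 exon bases in GENCODE M21. The length behind the Hoxb2 RPKM was 1628 bases against 3488 exon bases there, so its overlap may not apply to the gene model counted. Hoxb3, Hoxb4 and Hoxb7 were at 0.0812 to 0.752 RPKM, and Hoxb9 at 0.325 to 0.643 RPKM in NS and 0.0881 to 0.290 RPKM in 5dw.

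Counted over the 37 Hox genes seen in any library, 8 had every NS library above every 5dw library without scaling, namely Hoxa2, Hoxa7, Hoxb9, Hoxc4, Hoxc5, Hoxd3, Hoxd4 and Hoxd9, beside 22.5% of all genes above 0. None had every 5dw library above every NS library, beside 5.34%. With median-ratio scaling the first list held Hoxd3 and Hoxd4 alone (11.9% of all genes), and the second held Hoxb7 and Hoxc10 (12.0%).

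Of the 12 tested Hox genes, 8 had their lowest WT NS value and 7 their lowest Act NS value in library 2, and 6 (Hoxa9, Hoxa10, Hoxb2, Hoxc5, Hoxd4 and Hoxd9) had it there in both genotypes, a pattern noticed after the values were seen. In WT 5dw, library 3 had the lowest value in 6 of the 12, a count within a single group that does not bear on the genes shared by both NS groups. Over genes, the deviations from the group means correlated at 0.42 between WT NS library 2 and Act NS library 2. WT NS library 2 was also the shallowest, with 18649321 mapped reads, while Act NS library 2 had 24094687. The part of body site, depth or sorting session in this was not tested. According to the methods, RNA was pooled across sorting sessions, so a library number need not stand for a single session.

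The second question was whether the activin transgene changes Hox expression. Between Act NS and WT NS, 0 of 12 Hox genes were called, beside 0.0167% of all tested genes, and 0 had an unadjusted p under 0.05, beside 6.88%, or groups without overlap, beside 8.97%. Between Act 5dw and WT 5dw, 0 of 12 were called, beside 0.0334%, and 2 had an unadjusted p under 0.05, beside 3.22% of all tested genes. For the difference of the wounding change between genotypes, 0 of 12 were called, beside 0.0% of all tested genes, and again 2 had an unadjusted p under 0.05, beside 3.34%. Limma-voom on the recovered reads, with 26 Hox genes and on either scale, called 0 in each of these 3 comparisons.

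These 2 genes were Hoxc10 and Hoxc8. Hoxc10 was lower in Act 5dw than in WT 5dw by a log2FC of -0.64 (95% interval -0.99 to -0.29, unadjusted p = 0.00193, adjusted p = 0.571), and Hoxc8 was higher by 0.73 (95% interval 0.29 to 1.17, unadjusted p = 0.00389, adjusted p = 0.696). The 3 WT and 2 Act libraries did not overlap for these genes and for Hoxa10, which is 3 of 12 beside 23.0% of all tested genes. The difference in wounding change was -0.70 for Hoxc10 (95% interval -1.17 to -0.23, adjusted p = 0.923) and 0.92 for Hoxc8 (95% interval 0.33 to 1.52, adjusted p = 0.913). Neither passed the correction over all genes, and the comparisons share the WT 5dw and Act 5dw libraries.

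Genes that work with or on the Hox clusters were counted from lists. Of 9 TALE cofactors, 8 were tested, and 4 were lower in WT 5dw and 3 in Act 5dw without scaling, beside 48.8% and 36.5% of all tested genes. Their median log2FC was -0.52 and -0.28 without scaling, beside -0.40 and -0.31 over all tested genes. With median-ratio scaling it was -0.10 and 0.02, beside 0.01 in both genotypes over all tested genes. On both scales Pknox1 was lower in WT (log2FC -0.84, SE 0.14, adjusted p = 0.000567, and -0.42 with scaling) and Pbx3 was higher in WT (0.41, SE 0.12, adjusted p = 0.0136, and 0.72 with scaling), while no cofactor was called in Act. Pbx3 had passed the filter through WT 5dw libraries alone, where it is high. Of 21 Polycomb subunits, 20 were tested. On both scales 8 were lower in WT and 5 in Act, beside 21.2% and 20.4% of all tested genes. None was higher on both scales, beside 9.45% and 9.04%. With median-ratio scaling alone, 3 were higher in WT and 1 in Act, beside 23.4% and 20.3%. The median log2FC of the 20 subunits was -0.60 in WT and -0.48 in Act without scaling, and -0.17 and -0.21 with it. Cbx7, a chromobox protein that reads H3K27 methylation, had a log2FC of -1.95 (SE 0.17, adjusted p = 1.28e-05) in WT and -2.07 (SE 0.19, adjusted p = 2.91e-05) in Act without scaling. Without scaling, the methyltransferase Ezh1 had -1.40 and -1.34 and the chromobox gene Cbx2 -1.07 and -1.06. Of the subunits called lower on both scales, Cbx2, Cbx7 and Cbx8 had passed the filter through NS libraries alone, where they are high.

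Of 10 Trithorax and H3K27 demethylase genes, all tested, the same 3 were lower on both scales in WT and in Act, namely the methyltransferases Kmt2a (log2FC -1.003 and -0.88 without scaling) and Kmt2b (-1.01 and -0.94) and the demethylase Kdm6a (-1.09 and -1.01). These 3 of 10 stand beside 21.2% of all tested genes in WT and 20.4% in Act. The median of the 10 genes was -0.52 in WT and -0.42 in Act without scaling, beside -0.40 and -0.31 over all tested genes. With median-ratio scaling it was -0.08 and -0.10, beside 0.01 in both genotypes over all tested genes. Of 44 other regulators of position in the limb, trunk or face, 20 were tested. On both scales 8 were lower in WT and 9 in Act, beside 21.2% and 20.4% of all tested genes. None was higher on both scales, beside 9.45% and 9.04%. With median-ratio scaling alone, 2 were higher in WT and 1 in Act, beside 23.4% and 20.3%. The medians of these 20 genes without scaling were -0.85 and -0.68, beside the same -0.40 and -0.31. With scaling they were -0.40 and -0.33, beside the same 0.01. Zic1 (-1.93 in WT and -1.58 in Act), Irx2 (-1.86 and -1.80), Msx1 (-1.56 and -1.78) and Meox1 (-1.21 and -1.66), all homeobox or zinc finger factors of trunk and limb patterning, were the 4 with the largest change among those called in both genotypes, taking the larger of the WT and Act values of each. The forkhead gene Foxd1 (-1.65 and -1.59), also called in both, had a larger change than Msx1 and Meox1 in WT and than Zic1 in Act. Of the regulators called lower on both scales, Dlx5, Foxd1 and Meox1 had passed the filter through NS libraries alone, where they are high. The genotype comparisons called none of these genes.

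Of 15 noncoding transcripts of the Hox clusters in the table, none reached the filter and 7 were at 0 throughout, 6 of them microRNA genes, which poly-A libraries of long RNA do not measure well. Hotairm1 (0.283 to 0.956 RPKM), at the anterior end of HoxA, and Hoxb3os (0.276 to 0.928 RPKM) were the most abundant, and Hotair, from the HoxC cluster, was at 0.0486 to 0.294 RPKM. Of the 5 Cdx and Evx genes, 3 were at 0 throughout and the sum stayed at 0.0278 RPKM or less.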

How the data were processed

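Poly-A RNA of sorted fibroblasts was sequenced in single-end reads. The authors mapped them to GRCm38 in CLC Genomics Workbench 12 and deposited RPKM values (reads per kilobase of gene, scaled to the mapped total) for 47643 symbols. The authors' edgeR test was not the main test, since the deposited values are not counts, and limma-voom was the test run on recovered reads. Reads were recovered as whole multiples of the value of a single read (tolerance 0.03) for all 39 Hox genes, 32 by the exon length of GENCODE M21, 5 by a common step and 2 at 0. Precision for low Hox genes is limited by these few reads. For the 5 genes with a common step (Hoxa9, Hoxb2, Hoxb5, Hoxc8 and Hoxd3) the length behind the RPKM differed from the exon length of GENCODE M21. Statements on their exon overlap, or the lack of it, may thus not apply to the gene models counted.

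Genes with at least 1 RPKM in at least 2 libraries were tested as log2(RPKM + 0.5) with limma-trend (limma 3.58.1, R 4.3.3), with 1 mean per group over 11 libraries, 7 residual degrees of freedom and Benjamini-Hochberg adjustment over all 11979 genes. A log2FC on this scale understates the change of low genes. Fits were tested on simulated data. "Rose" and "fell" mark Hox genes past an adjusted p of 0.05 in the same direction without scaling and with median-ratio scaling. Values per library are given for Hox genes called in any comparison, for the 5 most abundant and for the top gene of each cluster, and pathway genes named were those with the largest log2FC called without scaling in both genotypes, at most 4 a list. Hoxa5, Hoxc13, Hoxd3, Pbx3, Cbx8, Dlx5, Foxd1 and Crabp1 were named after their values were seen. Marker genes, too, could pass the filter through the group where they are high. The Hox genes as members, although picked by symbol alone, and the lists were chosen with earlier results of these data known.

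The replicate numbers were checked by the correlation of deviations from the group means between libraries of the same number, which was 0.55, 0.42 and 0.33 for WT NS with Act NS and 0.19, 0.12 and 0.11 for WT NS with WT 5dw. All exceed 0.1, the rule set for pairing. Pairs of different numbers were at -0.47 to 0.19 for WT NS with Act NS and -0.20 to 0.08 for WT NS with WT 5dw. Deviations within a group sum to 0, so these values are not independent and the rule cannot show pairing. Whether the numbers pair these libraries was not tested, and the labels do not say what a number marks. Act 5dw shares 2 numbers. Its library 1 had correlations of -0.12, 0.02 and -0.08 with the libraries numbered 1 of WT NS, Act NS and WT 5dw. Its library 3 had 0.16, 0.14 and 0.19 with those numbered 3. The deviations of these 2 libraries mirror each other, and library 1 reached 0.31 with WT 5dw library 2. The numbers were thus not shown to pair Act 5dw, and all block values rest on numbers alone. The alternatives were other pseudocounts, filters, scalings, a replicate block, limma-voom on reads and leaving out each library.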

Additional observations from a re-analysis of the deposited data

How the results depend on the processing

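Of the 12 tested Hox genes, 7 were called lower and 1 higher in WT 5dw without scaling, and 4 lower and 0 higher in Act 5dw. With the share of all tested genes in parentheses, the number called lower in WT was 0 with a filter of 5 RPKM (46.6%), 2 with median-ratio scaling (21.2%), 1 with quantile normalization (19.4%), 3 with limma-voom on reads (22.5%), and 12 of 26 with limma-voom on reads with the filter on the mean and no scaling (47.3%). The number lower in Act was 7 of 37 with no filter (17.5%), 0 with a filter of 5 RPKM (36.4%), 2 with median-ratio scaling (20.4%), 1 with quantile normalization (17.2%), 2 with limma-voom (17.6%) and 7 of 26 with limma-voom with the filter on the mean and no scaling (31.6%). It was 2 to 5 when leaving out 1 library (23.7% to 41.2%). With the filter of 5 RPKM, Hoxc10 was the sole Hox gene tested. The number higher in WT was 2 of 26 with limma-voom with the filter on the mean and median-ratio scaling (21.5%), where Hoxb7 was added. With the replicate block it was also 2, there of 12 (10.2%), by adding Hoxb2. The block changed no other call of a Hox gene than that of Hoxa9 (lower in WT). The number higher in Act was 1 of 12 with quantile normalization (20.1%), namely Hoxc10 (log2FC 0.41, adjusted p = 0.0427). The counts for genotype and for the interaction were 0 under every alternative run. For the log2FC of Hoxc10 in Act, of 0.03, leaving out 1 library gave -0.0748 to 0.18, the block -0.00577 and leaving out both NS libraries numbered 1 -0.0748. Median-ratio scaling gave 0.36, and limma-voom with the filter on the mean and median-ratio scaling gave 0.41. For Hoxc8 in Act, of -0.05, leaving out 1 library gave -0.13 to 0.0716, median-ratio scaling 0.27, quantile normalization 0.35, limma-voom 0.31 and limma-voom with the filter on the mean and median-ratio scaling 0.32. The log2FC of Hoxc10 in WT was 0.67 to 1.28 and that of Hoxc8 in WT -1.19 to -0.49 under all alternatives that tested them, each past the threshold. Hoxa7 in Act was past it in all as well, at -1.16 to -0.54, and in WT in all but quantile normalization. Hoxd4 in Act, of -1.31, was past it in 21 of 22, at -2.69 to -0.72, and lost with quantile normalization (adjusted p = 0.129). The limma-voom fits with a filter on the mean and the fit without both NS libraries numbered 1 were added after seeing the data. Depth limits the genes under the filter, of which 11 of 39 Hox genes have 30 recovered reads or fewer in all 11 libraries together. The causes of these shifts were not tested.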
